A study of Mus musculus with 40 samples.

Results

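Collagen I under co-cultures of 4T1 carcinoma cells and T cells was compared with uncoated plastic in 7 RNA-sequencing libraries, 3 on collagen I and 4 on uncoated tissue culture polystyrene, of 40 libraries in all. The members were chosen by their labels alone: the collagen I co-cultures of experiments 2, 4 and 5, and the uncoated co-cultures of experiments 1, 2, 4 and 5. Experiments 2, 4 and 5 hold both surfaces and give 3 pairs. 4T1 is a mammary carcinoma line from a BALB/c mouse, used here as the ATCC stock, and the T cells came from spleens of C57Bl6 mice, so the strains differ. Wells received collagen I at 250 µg/ml or buffer, then 4T1 cells at 10000 per cm2, and on the next day T cells at 80000 per cm2 with interleukin 2 at 30 U/mL. Cells were collected 24 h later. The parallel cultures of 4T1 alone on the same surfaces (4 libraries on collagen I, 5 uncoated) received interleukin 2 without T cells. Co-cultures on collagen IV, fibronectin and vitronectin entered the model to share its estimates of the spread and of the experiment block. They also serve as side-by-side values. Free cells were pelleted and combined with the detached cells before RNA was taken, so each co-culture library is a mixture of both cell types, and fewer cells of a type and less RNA per cell cannot be told apart. How the T cells were separated from the other spleen cells is not given in the sources used here.

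Collagen I is the main fibrillar collagen of connective tissue and of the stroma around many carcinomas. Cells bind it through integrins with the beta1 chain, among them alpha1beta1 and alpha2beta1, and through the discoidin domain receptors Ddr1 and Ddr2. Attachment to it is known to bear on focal adhesions, on matrix turnover by metalloproteinases and the plasminogen system, and on the expression of matrix genes. T cells that recognise their targets release interferon gamma, which switches on antigen presentation and chemokine genes in nearby carcinoma cells.

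The 7 libraries held 26.38 to 40.01 M assigned reads, and a count of 0 allows up to 0.0760 to 0.111 per M (3 reads, counting error only). Here per M means reads per M of the library size as the authors had scaled it. The carcinoma label was matched by its epithelial markers, 20 genes whose summed signal was 2522 to 3899 per M on collagen I and 2734 to 4198 per M on uncoated plastic. The T cell markers, 25 genes, were all detected. Their summed signal was 252.7 per M in experiment 1, 50.4 and 44.0 per M in experiment 2 (uncoated, then collagen I), 1359 and 1452 per M in experiment 4, and 26.3 and 26.9 per M in experiment 5. It was 4.03 to 7.58 per M in 4T1 alone. The T cell share of the RNA thus differed far more between experiments than between the surfaces of an experiment. Library name tags with no stated meaning are the same within the pairs of experiments 2 and 5 and differ within that of experiment 4. Other spleen cells were also traced: summed B cell markers were 50.3 and 55.0 per M in experiment 4 (uncoated, then collagen I) and 3.13 to 10.5 per M in the other co-cultures, and erythroid and platelet markers were 25.2 and 10.8 per M in experiment 4 and 1.44 to 2.15 per M in the others.

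**Figure D1:**
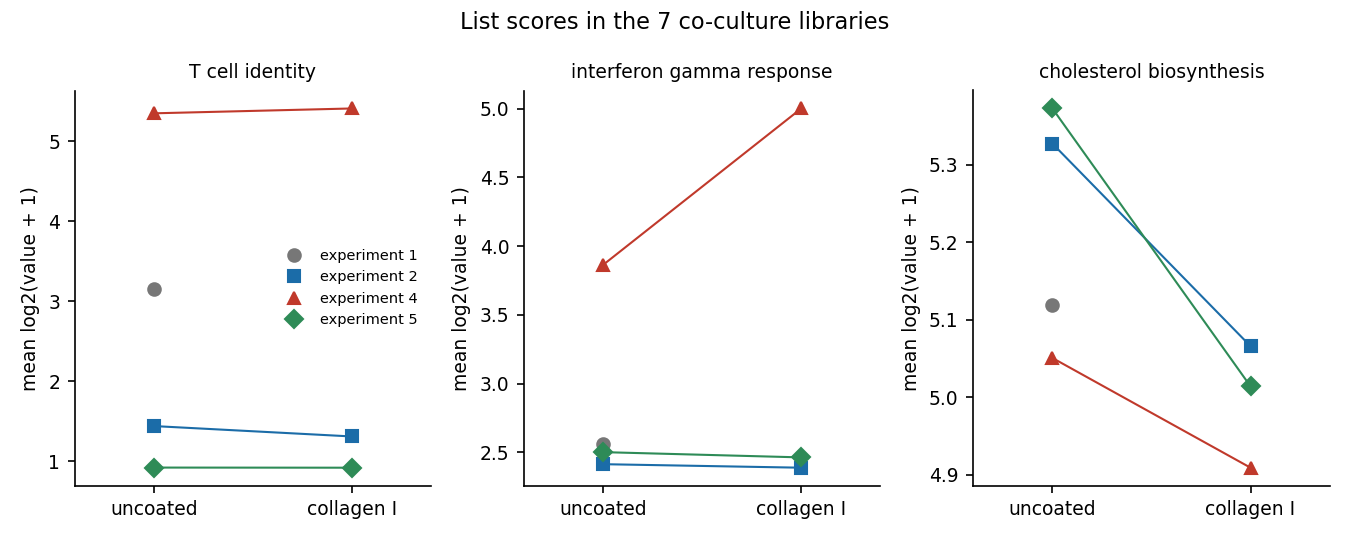
List scores (mean log2(value + 1) of a list's measured members, vertical axis) in the 7 co-culture libraries by surface, with lines joining the wells of an experiment. The T cell score was 5.35 and 5.41 in experiment 4 against 0.92 in both wells of experiment 5, the interferon gamma score stood apart in experiment 4, and the cholesterol score was lower on collagen I in all 3 pairs.

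Of 14701 genes tested, 14 differed between collagen I and uncoated plastic in co-culture at an adjusted p under 0.05 (0.0952% of genes tested), 5 of them higher on collagen I (0.034%) and 9 lower (0.0612%). The genes that rose were Ddx41, Large2, Plekhh3, Samd4b and Git1. The genes that fell included Il18rap, Col7a1, Col12a1, Epha1, Pdgfb, Akap12 and Cyp51. All 14 had the same direction in 3 of 3 pairs, as did 38.7% of all genes tested, and for 6 of them the libraries of the 2 surfaces did not overlap at all, as for 2.78% of all genes tested. The 14 were picked by a fit to these same libraries, so both counts are a description and not separate support. The test was limma on log2(value + 1) over the 18 co-cultures with the experiment as a block, with Benjamini-Hochberg adjustment. Of the tested genes, 1310 had an unadjusted p under 0.05 (730 higher, 580 lower), and 43 an adjusted p under 0.10 (25 higher, 18 lower). The count-based edgeR test on the recovered reads called 11 genes (0.0748%), all of them among the 14, with 4 higher (0.0272%) and 7 lower (0.0476%). Il18rap, Samd4b and Ddx41 are examples of calls made by both tools.

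The count depended on the wells and on the model. It was 1 without the collagen I library of experiment 2 and 1 without that of experiment 5, and Ddx41 was the gene left in both cases. It was 4 without the uncoated library of experiment 2, 4 without that of experiment 5 and 9 without that of experiment 4. Without all libraries of experiment 4, the one richest in T cell markers, 63 genes passed (24 higher, 39 lower) and the 14 were among them. Without the experiment block no gene passed with limma (170 at an unadjusted p under 0.05). The count was 175 when all 40 libraries were fitted (114 higher, 61 lower), 143 with DESeq2 (87 and 56) and 132 with the T cell score as a covariate (71 and 61), each with the 14 among them. When the libraries were scaled to their carcinoma epithelial markers, 26 genes passed, 20 higher and 6 lower, against 5 and 9 above. Under that scaling the median of all genes tested was 0.09, and 9 of the 14 still passed. None of the 14 changed direction under any of the 21 alternatives, which reuse the same libraries.

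**Figure D2:**
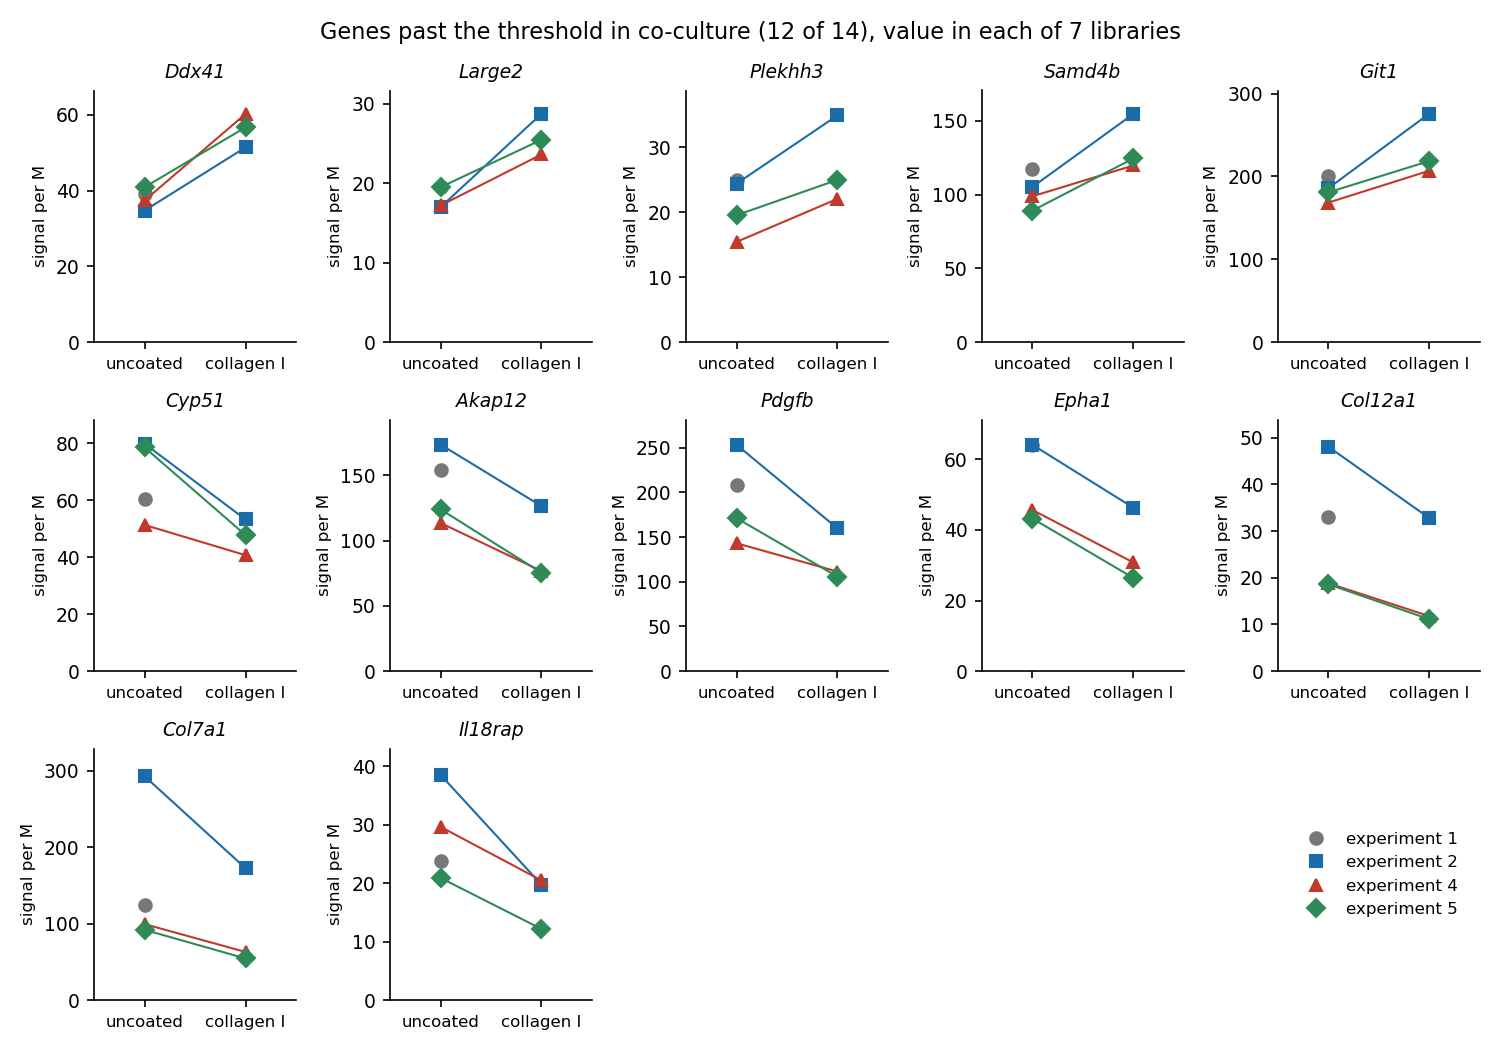
Deposited signal per M (vertical axes, from 0) of 12 of the 14 genes past the threshold in each of the 7 libraries, uncoated on the left and collagen I on the right, with lines joining the wells of an experiment. Every line rises in the 5 upper panels and falls in the other 7, and experiment 2 is the highest for several of the genes that fell, such as Col7a1 at 293.0 and 172.7 per M.

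Ddx41, a DEAD-box RNA helicase of splicing and nucleic acid sensing (mm10 chr13:55530410-55536658, minus strand), measured 39.1, 34.7, 37.4 and 40.9 per M in the uncoated co-cultures of experiments 1, 2, 4 and 5, and 51.4, 60.2 and 56.7 per M on collagen I in experiments 2, 4 and 5. Every collagen I library lay above every uncoated one. The difference was 0.57 ± 0.06 (log2 difference ± SE, adjusted p = 0.0015), and it stayed past the threshold under 20 of 21 alternatives, with a highest adjusted p of 0.0686. Large2, a glycosyltransferase that extends the laminin-binding sugar of dystroglycan (chr2:92365046-92374869, minus strand), gave 19.5, 17.0, 17.2 and 19.5 per M uncoated and 28.7, 23.6 and 25.5 per M on collagen I. The groups did not overlap. Its difference of 0.50 ± 0.08 was just past the threshold (adjusted p = 0.04998), and edgeR gave 0.0625.

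Samd4b, an RNA-binding protein of the Smaug family (chr7:28399522-28598144, minus strand), measured 117.1, 105.2, 98.8 and 89.2 per M uncoated against 154.6, 119.7 and 124.5 per M on collagen I. Git1, a scaffold of focal adhesions that acts on ARF GTPases (chr11:77493562-77507786, plus strand), measured 200.5, 185.8, 168.5 and 180.8 per M uncoated against 275.9, 206.9 and 218.6 per M. For both genes the lowest collagen I library, that of experiment 4, exceeded the highest uncoated one, that of experiment 1. The log2 differences were 0.43 ± 0.05 for Samd4b (adjusted p = 0.00828) and 0.38 ± 0.06 for Git1 (adjusted p = 0.0205). Plekhh3, a protein with pleckstrin homology and FERM domains (chr11:101162679-101171351, minus strand), gave 24.99, 24.4, 15.4 and 19.6 per M uncoated and 34.9, 22.1 and 25.01 per M on collagen I. Here the groups overlapped, but collagen I was higher in each pair, and the difference was 0.44 ± 0.06 (adjusted p = 0.0114).

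By the naming rule, the next 3 genes higher in every pair are given as values that did not pass. Vgll4, which competes with YAP for TEAD factors, was at 45.0, 55.0, 48.7 and 42.1 per M uncoated and 78.9, 68.5 and 61.6 per M on collagen I (0.51 ± 0.09, adjusted p = 0.0536). Cmtm3, a MARVEL-domain membrane protein, was at 20.4 to 26.4 per M uncoated and 34.4 to 35.6 per M on collagen I (0.54 ± 0.09, adjusted p = 0.0536). Mrps18a, of the mitochondrial ribosome, was at 27.3 to 36.4 per M and 34.6 to 41.0 per M (0.30 ± 0.05, adjusted p = 0.0591). The surfaces did not overlap for Vgll4 and Cmtm3 and did for Mrps18a.

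Receptor and ligand of the urokinase system did not pass. Plaur, the urokinase receptor, was at 109.3, 116.2, 83.1 and 87.5 per M uncoated and 158.2, 108.6 and 118.7 per M on collagen I (0.42 ± 0.08, adjusted p = 0.0788), higher in 3 of 3 pairs. Plau, urokinase itself, differed by 0.01 ± 0.15 (adjusted p = 0.989).

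Both collagen genes among the calls were lower on the collagen I coat. Col7a1, the chain of anchoring fibrils (chr9:108953586-108984875, plus strand), measured 124.7, 293.0, 99.5 and 92.1 per M uncoated and 172.7, 63.1 and 54.6 per M on collagen I. Col12a1, a collagen found along collagen I fibrils (chr9:79598991-79718831, minus strand), measured 33.1, 48.0, 18.8 and 18.6 per M uncoated and 32.8, 11.8 and 11.1 per M on collagen I. For both, experiment 2 was the highest on either surface and the groups overlapped. Within pairs the differences were close to each other, at -0.76, -0.65 and -0.74 for Col7a1 and -0.54, -0.63 and -0.70 for Col12a1. The fitted values were -0.76 ± 0.11 (adjusted p = 0.0197) and -0.62 ± 0.10 (adjusted p = 0.0474). Col12a1 was not called by edgeR. It stayed past the threshold under 9 of the 21 alternatives, and Col7a1 under 14. Of the 15 collagen chains tested, these 2 fell and 13 did not pass, beside 0.0612% of all genes called lower, and the median was -0.08. The chains of collagen IV, Col4a1 and Col4a2, gave -0.03 ± 0.07 and 0.01 ± 0.07. Little collagen I message was present: Col1a1 averaged 1.0 per M over the 7 libraries.

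Il18rap, the accessory chain of the interleukin 18 receptor (chr1:40515362-40551705, plus strand), measured 23.8, 38.5, 29.6 and 20.9 per M uncoated and 19.7, 20.5 and 12.2 per M on collagen I. The highest collagen I library lay below the lowest uncoated one. The fall was -0.77 ± 0.10 (adjusted p = 0.00828). This receptor chain is known from lymphocytes, and here it was also present without T cells: 4T1 alone gave 28.3 ± 5.66 per M uncoated (SD, n = 5) and 19.6 ± 3.57 per M on collagen I (SD, n = 4).

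Pdgfb, a platelet-derived growth factor chain (chr15:79995874-80014977, minus strand), was at 207.8, 253.3, 143.1 and 171.2 per M uncoated and 159.8, 111.4 and 105.8 per M on collagen I (-0.59 ± 0.08, adjusted p = 0.0114). Epha1, an ephrin receptor kinase (chr6:42358487-42373268, minus strand), was at 64.0, 64.1, 45.7 and 43.2 per M and 46.3, 30.8 and 26.4 per M (-0.60 ± 0.08, adjusted p = 0.00828). Akap12, a scaffold that anchors protein kinase A (chr10:4266380-4359470, plus strand), was at 153.7, 173.5, 113.4 and 123.9 per M and 126.3, 76.7 and 75.3 per M (-0.58 ± 0.08, adjusted p = 0.00828). For these 3 genes the collagen I well of experiment 2 overlapped the uncoated range and the other 2 collagen I wells lay below it.

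Cholesterol synthesis was also represented among the calls. Cyp51, the lanosterol demethylase (chr5:4081145-4104746, minus strand), measured 60.3, 79.8, 51.3 and 78.5 per M uncoated and 53.2, 40.7 and 47.8 per M on collagen I, with 1 collagen I well above the lowest uncoated one. The fall was -0.53 ± 0.09 (adjusted p = 0.0446, and 0.0521 with edgeR). Under the scaling to epithelial markers it did not pass.

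Of the 20 cholesterol synthesis genes tested, 2 fell, Cyp51 among them, none rose and 18 did not pass, beside 0.0612% of all genes called lower. The estimate was negative for 19 of 20, and 14 were lower in 3 of 3 pairs, as were 20% of all genes tested. The list median was -0.23, against 0.00 for all genes tested. Scaled to epithelial markers, the median was -0.13, against 0.09 for all genes, and no member passed. The mean score of the list was lower on collagen I by -0.26, -0.14 and -0.36 in experiments 2, 4 and 5. Members nearest to the threshold were Hsd17b7 (-0.46 ± 0.08, adjusted p = 0.0593), Hmgcs1, an early synthase of the pathway (-0.49 ± 0.10, adjusted p = 0.0788), and Idi1 (-0.61 ± 0.13, adjusted p = 0.0985). Hmgcs1 was at 54.8, 69.4, 60.7 and 79.4 per M uncoated and 42.9, 49.6 and 55.2 per M on collagen I. Ebp, with 0.08 ± 0.07, was the member with a positive estimate. In 4T1 alone 15 of the 20 were called lower (1.29% of all genes tested were), with a median of -0.30.

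Sterol genes are known to be switched on together by SREBP factors, which bind a sterol element and act with the factor NF-Y at CCAAT boxes. Upstream sequence was therefore read for the pathway genes from RefSeq promoter windows (GRCm38.p6, 250 bases before to 50 after a start), in which 15 of the 20 genes had an entry. The letters TCACNCCAC were searched on both strands and found for 1 of the 15 genes, Hmgcs1, against 1.34% of 9575 tested genes with a window. The letters CCAAT were found on either strand for 14 of the 15, against 43.3% of tested genes. The 250 bases before the start are shown for Hmgcs1 (chr13:119690101-119690350, plus strand), the gene with the sterol letters, starting at -137, and for Cyp51 (chr5:4104698-4104947, minus strand), the called gene with an entry. Each is written 5′ to 3′ in the direction of its gene, with matches of either set of letters in capitals (ATTGG is CCAAT on the other strand).
Hmgcs1: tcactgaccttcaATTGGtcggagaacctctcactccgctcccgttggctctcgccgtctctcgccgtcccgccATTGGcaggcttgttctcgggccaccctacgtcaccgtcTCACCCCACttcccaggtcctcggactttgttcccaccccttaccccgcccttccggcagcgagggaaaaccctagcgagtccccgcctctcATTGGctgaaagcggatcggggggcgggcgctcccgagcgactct
Cyp51: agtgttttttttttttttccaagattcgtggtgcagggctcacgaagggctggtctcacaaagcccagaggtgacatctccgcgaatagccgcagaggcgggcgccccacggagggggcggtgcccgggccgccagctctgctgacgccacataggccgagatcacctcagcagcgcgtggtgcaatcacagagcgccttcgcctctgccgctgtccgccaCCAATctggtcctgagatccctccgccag
The Hmgcs1 stretch holds 3 CCAAT boxes beside the sterol letters and the Cyp51 stretch holds 1. A match of letters is a description of the sequence and not a measured binding site. Genes with CCAAT boxes included Mvk (5 boxes, log2 difference -0.03), Ebp (2 boxes, 0.08) and Msmo1 (3 boxes, -0.53). Whether the letters go with the differences was not tested.

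Genes around the pathway did not pass. Of 19 genes of sterol regulation and fatty acid synthesis, none was called, and the median was -0.08. Estimates were negative for 12 and positive for 7. Of the negative ones, 7 had an unadjusted p under 0.05, beside 580 of all 14701 genes tested that were lower at that level. Scd2, a fatty acid desaturase, was at 482.0, 560.6, 498.7 and 972.9 per M uncoated and 356.0, 433.3 and 672.1 per M on collagen I (-0.48 ± 0.10, adjusted p = 0.0863). Experiment 5 was high on both surfaces. Insig1, which holds SREBP back when sterols are plentiful, gave -0.51 ± 0.11 (adjusted p = 0.116), and Stard4, a cholesterol carrier, gave -0.30 ± 0.06 (adjusted p = 0.11). The factors themselves were near 0, with Srebf2 at -0.08 ± 0.09 and Srebf1 at 0.03 ± 0.07. Abca1 and Abcg1, which export cholesterol, gave 0.01 ± 0.29 and 0.01 ± 0.32, intervals too wide to place them. Both were at least 8-fold higher with T cells on the other 3 coats, so their signal cannot be read as that of the carcinoma cells.

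**Figure D3:**
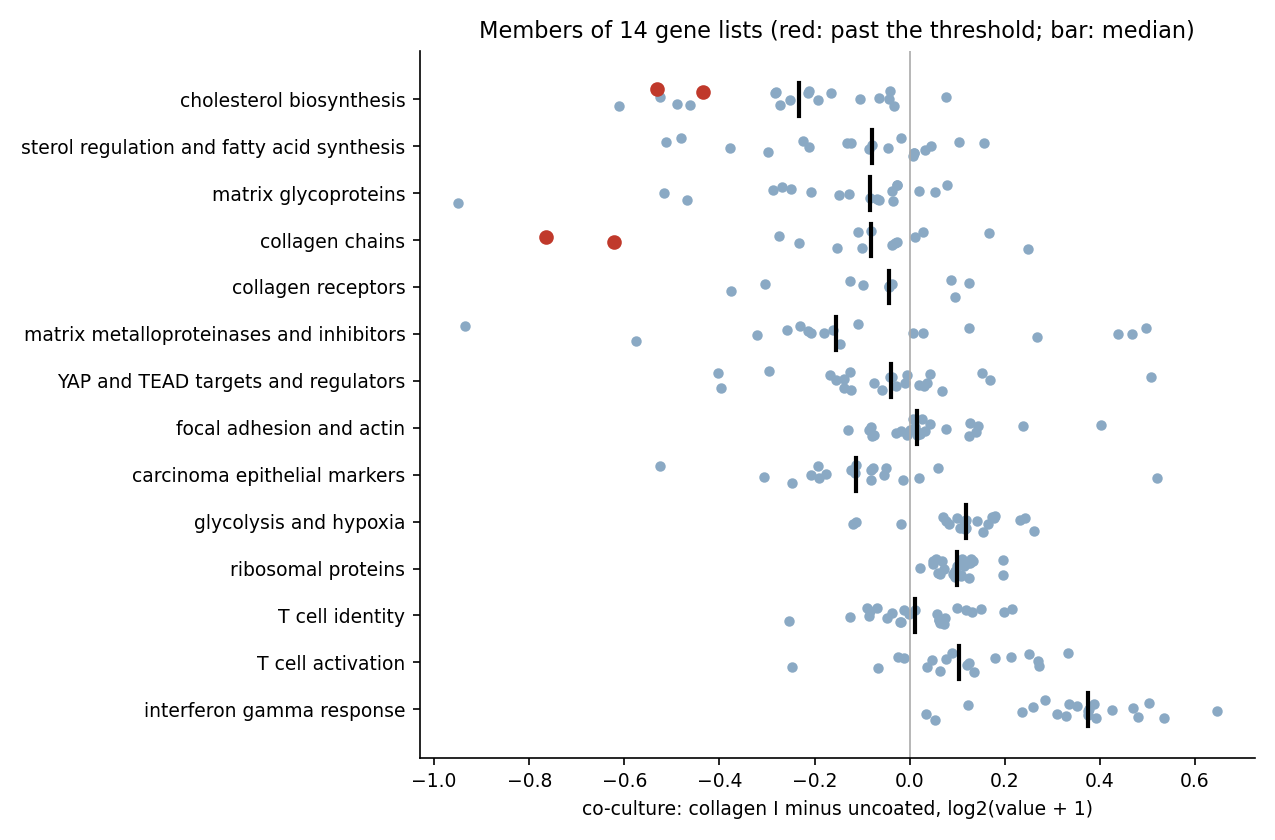
Log2 difference between collagen I and uncoated co-cultures (horizontal axis) for each tested member of 14 gene lists, with a bar at the list median and genes past the threshold in red. Cholesterol synthesis genes lie to the left of 0 with a median of -0.23, interferon gamma genes to the right with a median of 0.37, and T cell identity genes around 0.01.

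None of the 10 collagen receptor genes tested passed, and 1 had an unadjusted p under 0.05, as did 1310 of all 14701 genes tested. Itga2, the alpha2 integrin chain that binds collagen I, was at 198.7, 214.7, 156.2 and 162.6 per M uncoated and 188.7, 124.0 and 121.5 per M on collagen I (-0.30 ± 0.13, adjusted p = 0.509). It was lower in 3 of 3 pairs. Itga1, the alpha1 chain, was low throughout at 1.82 to 4.31 per M (-0.38 ± 0.20, adjusted p = 0.64). Itgb1, their shared beta1 chain, was at 1127 to 1379 per M uncoated and 1070 to 1251 per M on collagen I (-0.10 ± 0.09, adjusted p = 0.802). The discoidin receptors gave 0.13 ± 0.10 for Ddr1 (adjusted p = 0.753) and -0.04 ± 0.08 for Ddr2 (adjusted p = 0.939). Of the remaining members, Cd44, Sdc1, Sdc4, Itga10 and Adgrg1 lay between -0.13 and 0.10.

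Matrix proteases and their inhibitors split in direction without a call among 18 tested genes. At an unadjusted p under 0.05, 3 were higher and 6 lower, beside 730 and 580 of all 14701 genes tested. Mmp14, a membrane-bound protease that cuts collagen I, was at 132.5, 127.0, 110.1 and 120.5 per M uncoated and 204.4, 150.4 and 157.2 per M on collagen I. Timp2, an inhibitor that also takes part in the activation of Mmp2 by Mmp14, was at 328.7, 317.6, 327.3 and 367.1 per M uncoated and 436.6, 419.3 and 509.8 per M on collagen I. Neither gene's groups overlapped, yet the adjusted p values were 0.0922 (0.50 ± 0.10) and 0.0601 (0.44 ± 0.08). Mmp9, a gelatinase, leaned the other way, at 301.5, 392.6, 205.4 and 238.4 per M uncoated and 315.9, 166.5 and 121.1 per M on collagen I (-0.58 ± 0.15, adjusted p = 0.214).

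Matrix glycoproteins leaned lower, with 16 of 19 estimates negative, a median of -0.08 against 0.00 for all genes tested, and no call. Lower in 3 of 3 pairs were 9 of the 19, as were 20% of all genes tested. Tnc, tenascin C, was at 53.5, 83.5, 32.2 and 29.6 per M uncoated and 63.2, 24.7 and 18.3 per M on collagen I (-0.47 ± 0.11, adjusted p = 0.14). Postn, periostin, gave -0.52 ± 0.13 (adjusted p = 0.183), and Fn1, fibronectin, gave -0.29 ± 0.09 (adjusted p = 0.333). Each was lower in all 3 pairs, and the groups overlapped for each.

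The remaining pathways that answer to adhesion held no call. For reference, 730 of all 14701 genes tested were higher and 580 lower at an unadjusted p under 0.05. Among 24 targets and regulators of YAP and TEAD, 2 were higher and 3 lower at an unadjusted p under 0.05. Ctgf, a standard YAP target, was at 267.2, 437.3, 147.8 and 164.4 per M uncoated and 311.2, 121.5 and 134.0 per M on collagen I (-0.40 ± 0.10, adjusted p = 0.164), while Cyr61, another target, gave 0.02 ± 0.09. In the TGF-beta pathway, 3 genes were higher and 4 lower of 23 at an unadjusted p under 0.05. These included Nbl1, a secreted BMP antagonist (0.65 ± 0.12, adjusted p = 0.0593), and Inhba, the activin beta A chain (-0.49 ± 0.11, adjusted p = 0.116). Areg, amphiregulin, an EGF receptor ligand, was at 27.7, 33.7, 16.1 and 17.3 per M uncoated and 27.4, 8.18 and 10.7 per M on collagen I (-0.58 ± 0.18, adjusted p = 0.306). Of 25 focal adhesion and actin genes, 4 were higher and none lower at an unadjusted p under 0.05, with a median of 0.02.

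Epithelial markers of the carcinoma cells had 16 of 19 negative estimates, a median of -0.11 (0.00 for all genes tested) and no call. Sfn, the epithelial 14-3-3 sigma protein, was at 137.1, 132.8, 66.5 and 57.03 per M uncoated and 87.5, 52.4 and 40.6 per M on collagen I (-0.52 ± 0.10, adjusted p = 0.0842). Krt14 gave -0.31 ± 0.08 (adjusted p = 0.202) and Krt17 0.52 ± 0.14 (adjusted p = 0.234), so these basal keratins had opposite signs. Cdh1, E-cadherin, gave -0.21 ± 0.09 (adjusted p = 0.521). Glycolysis and hypoxia genes were higher in 3 of 3 pairs for 16 of 22, as were 18.7% of all genes tested, with a median of 0.12 and no call. Aldoa and Hk1 gave 0.17 ± 0.05 and 0.18 ± 0.07. All 24 ribosomal protein genes had positive estimates with a median of 0.10, and their score differed by 0.02, 0.24 and 0.05 in experiments 2, 4 and 5.

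None of the genes that mark the T cells or rose with them passed the test. None of 25 T cell identity genes passed, none had an unadjusted p under 0.05, and the median was 0.01. The score of these genes differed by -0.13, 0.06 and -0.002 (collagen I minus uncoated) in experiments 2, 4 and 5. A wider set took in 465 genes at least 8-fold higher with T cells on the other 3 coats and at 1 per M or more there. It is not made of T cell genes alone, as it includes haemoglobin (Hbb-bs), immunoglobulin (Ighm) and interferon-induced genes (Igtp). It held no call with limma, 1 gene at an unadjusted p under 0.05 (1310 of all 14701 tested) and a median of 0.01. The fit's spread includes the collagen IV well of experiment 4, with a T cell score of 6.91 against 5.35 uncoated. The lack of calls therefore does not show that these genes were equal on both surfaces. The 14 called genes belonged to a set of 10233 of the 14701 tested genes, those at 5 per M or more that T cells changed little on those coats. T cell activation genes had 14 of 18 positive estimates, a median of 0.10 (0.00 for all genes tested) and no call. Their score differed by 0.06, 0.21 and 0.02.

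Interferon gamma response genes had positive estimates for 21 of 21 members, a median of 0.37 and no call. This rested on experiment 4. Their score differed by -0.03, 1.14 and -0.04 in experiments 2, 4 and 5, and without experiment 4 the list median was -0.09. Irf9, a transcription factor of interferon responses, was at 6.92, 5.67, 19.6 and 7.92 per M uncoated and 7.95, 32.5 and 7.90 per M on collagen I (0.37 ± 0.28, adjusted p = 0.751). Both wells of experiment 4 stood above all others. In that experiment the score also spread over the coats, from 3.72 on vitronectin and 3.86 uncoated to 4.57 on fibronectin, 5.00 on collagen I and 5.82 on collagen IV, with 1 well each and no test. The T cell score of the same wells was 5.54, 5.35, 5.33, 5.41 and 6.91 in that order, and its part in the difference was not tested. Type I interferon genes differed by 0.19, 0.47 and -0.07 in the 3 pairs, and MHC class I presentation genes by 0.05, 0.28 and 0.004.

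The same contrast in 4T1 alone called 461 genes (3.14% of genes tested), 272 higher on collagen I (1.85%) and 189 lower (1.29%), in separate wells, with experiment 3 as an added pair. Of the 14 co-culture calls, 13 were among them, and all 14 had the same direction. Of the 272 risers, 249 were positive in co-culture, 125 at an unadjusted p under 0.05 and 5 called, with a median of 0.16 against 0.26 alone. Of the 189 that fell alone, 147 were negative in co-culture, 74 at an unadjusted p under 0.05 and 8 called, with a median of -0.11 against -0.24. Over all genes tested, 53.97% had the same sign in both contrasts, and in co-culture 730 were higher and 580 lower at an unadjusted p under 0.05. The genes were picked for their difference alone, so the medians are a description. When scaled to epithelial markers the co-culture medians became 0.26 and -0.01, but the median of all genes tested became 0.09. The score of those markers was itself lower on collagen I in 3 of 3 pairs, so this scaling moves collagen I values up as a whole. Across the 461 genes the effects had a Pearson r of 0.83, and across all genes 0.25 (a description across genes, which are not independent). Within the 272 risers r was 0.56, and within the 189 that fell 0.75, so the value of 0.83 draws in part on the 2 directions.

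**Figure D4:**
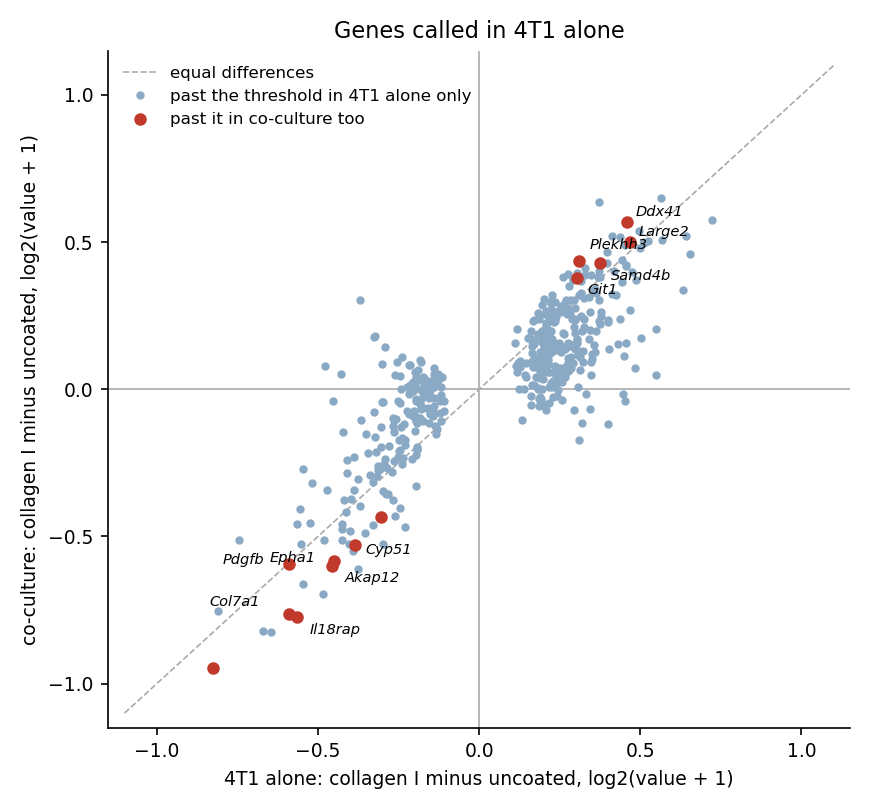
Log2 difference between collagen I and uncoated wells in 4T1 alone (horizontal axis) and in co-culture (vertical axis) for the 461 genes called in 4T1 alone, with the 13 genes also called in co-culture in red and a dashed line at equal differences. Most points lie in the lower left and upper right quadrants, and the named genes lie near the dashed line.

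A direct test of the difference between both effects called no gene with limma over 40 libraries (1404 at an unadjusted p under 0.05), and none with edgeR (1398). The co-culture pairs of experiments 2 and 5 held little T cell signal, with summed markers of 26.3 to 50.4 per M. Those of experiment 4 were at 1359 and 1452 per M, and 4T1 alone at 4.03 to 7.58 per M. The lack of calls thus does not show that the effect of collagen I was equal with and without T cells. Col12a1 was the call without one alone: it gave -0.19 ± 0.12 there (adjusted p = 0.439) against -0.62 in co-culture, and the difference of -0.43 ± 0.17 had an unadjusted p of 0.0154 and an adjusted p of 0.429. The 8 risers and 8 fallers with the smallest p in 4T1 alone had the same direction in 3 of 3 co-culture pairs. Rab31, a Rab GTPase of membrane traffic, gave 0.48 ± 0.05 alone and 0.40 ± 0.10 in co-culture, and St3gal4, a sialyltransferase, gave 0.50 ± 0.05 and 0.48 ± 0.10. Soat1, which esterifies cholesterol, was at 75.2, 75.4, 89.4 and 92.8 per M uncoated and 93.7, 101.3 and 106.6 per M on collagen I in co-culture (0.24 ± 0.06, adjusted p = 0.154), against 0.44 ± 0.04 alone. Dgkh, a diacylglycerol kinase, was the exception among the 14 genes singled out earlier from these data for 4T1 alone: it gave 0.55 ± 0.07 alone and 0.05 ± 0.11 in co-culture, where it was at 11.4, 15.0, 13.5 and 10.5 per M uncoated and 14.3, 12.2 and 12.3 per M on collagen I. The difference of -0.50 had an unadjusted p of 0.000458 and did not pass after adjustment. The other 13 had the same direction in co-culture in 3 of 3 pairs, and 2 of them, Ddx41 and Il18rap, were called there.

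The other coats were set against the same uncoated wells, so their values share controls with those of collagen I. Collagen IV gave 3 calls with limma (0.0204%), all lower (Il18rap, Lamb3 and Lama3). At an unadjusted p under 0.05 its count was 1908 genes, more than the 1310 of collagen I. Fibronectin and vitronectin gave no call with limma, and 576 and 483 genes were at that unadjusted level. In the order collagen I, collagen IV, fibronectin, vitronectin, Ddx41 gave 0.57, 0.08, 0.11 and 0.05. Epha1 gave -0.60, 0.20, 0.17 and -0.05 in the same order. Il18rap was negative on each coat, at -0.77, -0.71, -0.47 and -0.47, as was Col7a1, at -0.76, -0.54, -0.23 and -0.54. Cyp51 gave -0.53, -0.19, 0.09 and 0.15. Differences between coats were not tested.

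**Figure D5:**
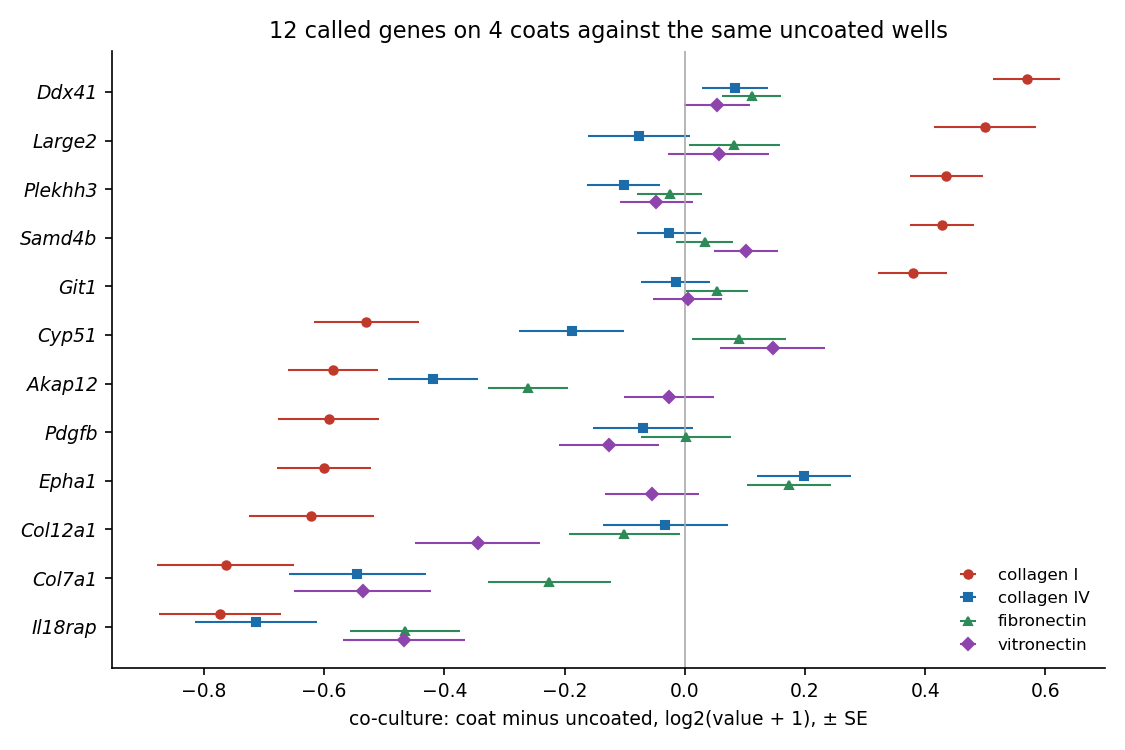
Log2 difference ± SE between each coat and the same uncoated co-cultures (horizontal axis) for 12 of the 14 genes called on collagen I. Collagen I (red) lies apart from 0 for each gene because the genes were chosen so, while Il18rap and Col7a1 are negative on all 4 coats and Ddx41 lies between 0.05 and 0.11 on the other 3.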

How the data were processed

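The deposited table holds, per the file headers and values, 1 normalised expression signal per gene and library. The submitters' processing notes name STAR 2.6, featureCounts, edgeR 3.31.7 and mm10; options and annotation are not given in the sources used here. Columns sum to 956225 to 1037118, and, once divided by what a single read is worth, 100% of values were whole numbers (tolerance 0.01, largest distance 0.0001). The series spans 18.95 to 239.1 M assigned reads.

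Of 21349 lines, 21347 genes were kept (Ldha had a cell without a number, Cd3d was listed on 2 identical lines), and 14701 reached 1 per M in 3 libraries. Coordinates are GENCODE gene bounds of mm10. Limma 3.58.1 (R 4.3.3, trend) was fitted to log2(value + 1), which understates differences of low genes: 18 co-cultures (9 residual degrees of freedom), 22 libraries of 4T1 alone (13), and all 40 for the difference (22). The experiment was a block. It pairs the wells: the labels call the number an experimental replicate, and residuals of collagen I and uncoated wells correlated at 0.84, 0.94 and 0.89 in experiments 2, 4 and 5. The fit draws on the other coats too, so its values differ somewhat from the pairs. P values were Benjamini-Hochberg adjusted over all genes tested, threshold 0.05. Alternatives were edgeR 4.0.16 (quasi-likelihood) and DESeq2 1.42.0 on recovered reads, other filters, pseudocounts, scalings and left-out libraries. No 2 libraries of a group were copies.

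Named genes were the calls seen in all 3 pairs at 5 per M or more (filled to 8 per direction), the 8 risers and 8 fallers with smallest p in 4T1 alone, up to 4 members per list, the collagen receptors, and 14 genes singled out earlier; further members are named to complete a list, chosen after their values were seen. The libraries and the 43 lists were chosen with earlier results of these data known. Some genes that the rule names are not reported here.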

Additional observations from a re-analysis of the deposited data

Results flagged for a closer look

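Within the 4 uncoated co-cultures, 1 library stood far from the other 3 for 7 list scores (mean log2(value + 1) of the members), out of 17 genes and 42 scores examined; chance alone marks about 1 in 20. The uncoated well of experiment 4 gave the highest score for the interferon gamma response (3.86, lowest well 2.41), interferon gamma receptor and signalling (6.02, lowest 5.35), checkpoint ligands (3.72, lowest 3.24) and erythroid and platelet markers (1.72, lowest 0.196), and the lowest for cell cycle genes (7.07, highest 7.26). The uncoated well of experiment 2 gave the highest score for collagen chains (4.24, lowest 3.79) and for AP-1 and immediate early genes (6.47, lowest 5.03). The collagen I wells of the same experiments stood apart from the other collagen I wells in the same direction, with 5.00 for the interferon gamma response in experiment 4 and 6.66 for AP-1 genes in experiment 2.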

How the results depend on the processing

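The count of 14 genes in co-culture moved most with the libraries and the model. It was 0 with no replicate block, 175 when all 40 libraries were fitted with a block within each arm (114 higher, 61 lower), 132 with the T cell score as a covariate (71 and 61), 143 with DESeq2 (87 and 56), 27 with a filter of 5 per M (16 and 11), 63 without experiment 4 (24 and 39) and, in an alternative chosen after seeing the data, 26 when scaled to epithelial markers (20 and 6). Leaving out 1 of the 7 libraries at a time gave 1 to 10 (9 without the uncoated well of experiment 4), and leaving out the collagen IV co-culture of experiment 5 gave 17 (7 and 10). It was 20 with the 6 paired libraries only, 16 with a pseudocount of 0.25, 11 without a filter, 10 with quantile normalisation and 13 with column totals. Of 294 values of the 14 genes under 21 settings, 194 kept their side of the threshold, 100 did not, and none changed sign. The count in 4T1 alone was 461, 29 with no replicate block (23 and 6) and 520 with edgeR. The test of the difference gave 0 under each of the 6 settings run. The interferon gamma median was -0.094 without experiment 4. The medians of the genes called in 4T1 alone were 0.26 and -0.0069 in co-culture under the epithelial scaling, where the median of all genes tested was 0.09. Beyond fewer samples or genes, the cause of these changes was not tested. Depth limits low values, since a count of 0 allows up to 0.0760 to 0.111 per M in the 7 libraries.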
